A study of Homo sapiens with 12 samples.

Results

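The stable HepG2 line named Z2 was compared with the stable HepG2 line named Empty, 3 wells against 3 wells, so that 6 of the 12 libraries of the series are described. The 6 were taken by their column names in a table of raw read counts per gene, and 15289 of 26485 genes had counts high enough to be tested. HepG2 is an established human hepatoma line that secretes many liver plasma proteins. Both lines were made by lipofection of a CRISPR vector and put under blasticidin 48 h later. Z2 received the vector sgZHX3-2 and its genotype is labelled ZHX3-depleted, while Empty received an empty vector and is labelled WT. Each vector gave 1 line, which was seeded into 3 wells of a multiwell plate (a, b and c). The wells are therefore replicates of a culture and not of a line, p-values measure the spread between wells, and the effect of the vector cannot be told apart from the history of either line. The other lines, Z5 and Z9, carry vectors sgZHX3-5 and sgZHX3-9. They enter only the shared estimate of the spread, a few values given beside those of Z2 and a comparison at the end.

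ZHX3 encodes a nuclear protein with zinc fingers and homeodomains that is known as a transcriptional repressor and that pairs with its relatives ZHX1 and ZHX2. Members of the family bind NFYA, a subunit of the trimeric factor NF-Y. NF-Y binds the CCAAT box of many promoters, those of cell cycle genes among them. In mouse liver, Zhx2 is known for silencing alpha-fetoprotein and other fetal genes after birth.

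ZHX3 mRNA was not lower in Z2. It stood at 34.9, 33.8 and 34.8 CPM in Z2 wells a, b and c, against 33, 32.7 and 33.5 CPM in Empty wells a, b and c. The log2 fold change, always Z2 minus Empty, was 0.06 ± 0.05 (SE), and it missed the threshold of an adjusted p under 0.05 (edgeR adjusted p = 0.402). The 3 Z2 wells lay just above the 3 Empty wells. ZHX3 lies on chromosome 20 from 41178455 to 41317731 on the minus strand (GRCh38). Read counts over a whole gene do not show small edits of its sequence or the amount of protein, so the depletion named in the label was not tested by these values. ZHX1 was not called (log2 fold change 0.12 ± 0.07, edgeR adjusted p = 0.207). ZHX2 was called lower, with 104, 122 and 122 CPM in Z2 wells, against 128, 138 and 141 CPM in Empty wells (log2 fold change -0.22 ± 0.06, edgeR adjusted p = 0.013), and its Z2 wells did not overlap the Empty wells. NFYA was called lower as well (log2 fold change -0.17 ± 0.05, edgeR adjusted p = 0.0225). A fit of the 6 libraries alone called neither ZHX2 (adjusted p = 0.0599) nor NFYA, and NFYA was also not called without Z2 a or without Empty a. AFP, the human alpha-fetoprotein gene, had 11746, 14096 and 11481 CPM in Z2 wells, against 11503, 10648 and 10610.2 CPM in Empty wells and missed the threshold (log2 fold change 0.19 ± 0.07, edgeR adjusted p = 0.0639). The Z2 range of AFP overlapped that of Empty.

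The label of the line was checked against markers. All 9 hepatocyte markers were tested and were present in every well, with summed levels of 50362 to 54902 CPM in Z2 wells and 55087 to 56164 CPM in Empty wells. Of these, SERPINA1 was called higher (0.32) and ALB, which encodes albumin, lower (-0.61), and 4 were called without Z2 c. Of the markers of other liver cells, these were at 0 counts in all 6 libraries: DCN for stellate cells, KDR for endothelial cells, MARCO and C1QA for macrophages, PTPRC and MS4A1 for lymphocytes and CFTR for cholangiocytes. KRT19, SOX9 and EPCAM, which mark cholangiocytes and also hepatoma cells, were present and not called. CDH5, a cadherin of endothelial cells, was called higher at 1.13, 2.36 and 1.52 CPM in Z2 wells, against 0.471, 0.693 and 0.291 CPM in Empty wells (log2 fold change 1.79 ± 0.30, edgeR adjusted p = 0.000415). CD68, PDGFRB, ACTA2 and PECAM1 were detected, and none of them was called. CD68, of macrophages, had 49.1 to 72.3 CPM in Z2 wells and 42.5 to 52.6 CPM in Empty wells, and the stellate cell markers PDGFRB and ACTA2 had 21.1 to 27.2 and 20.5 to 22.1 CPM in Z2 wells, against 24 to 25 and 20.7 to 22.3 CPM in Empty wells. PECAM1, of endothelial cells, had 5.44 to 5.90 CPM in Z2 wells and 5.03 to 5.18 CPM in Empty wells. The 5 endothelial markers summed to 8.14 to 9.09 CPM in Z2 wells and 6.54 to 7.09 CPM in Empty wells.

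Depth was similar, with 52465405 to 54179690 counts per Z2 well and 50864744 to 65428204 per Empty well, but the Z2 wells varied more among themselves. The common biological coefficient of variation was 0.101 within Z2, against 0.0556 within Empty, 0.0521 within Z5 and 0.059 within Z9. Counts of Z2 a and b had a chi-square per degree of freedom of 35.8, where sampling noise alone gives 1, of b and c of 25.2 and of a and c of 11.8, while Empty pairs had 8.82 to 9.78. In a principal component analysis of the 6 libraries, the component with 52.4% of the variance put Z2 wells a, b and c at 16.1, 32.8 and 25.1 and Empty wells a, b and c at -30.6, -22.5 and -20.9. The next component, with 17.2%, put Z2 b at 24.3 and Z2 a and c at -20.9 and -10.4, whereas the Empty wells lay between -5.81 and 8.82. Lines thus separated on the largest component, and well b stood apart from a and c on the next.

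Well b also differed from a and c by the GC content of the genes. When genes were split into 5 equal bins by the GC content of their transcripts, the median log2 difference from the Empty mean in the lowest bin was 0.13 in Z2 b, and it was 0.0153 in Z2 a and -0.0104 in Z2 c. In the highest bin it was -0.18 in Z2 b, against 0.00213 in a and -0.00377 in c. By transcript length, Z2 b ran between -0.12 in the bin of the shortest transcripts and 0.0797 in that of the longest. Of 7967 well expressed genes, 11 were at least 1.5-fold above and 69 at least 1.5-fold below the other wells of the line in Z2 b. In Z2 a the counts were 24 above and 9 below, and in Z2 c 1 above and 0 below. The part of GC content or RNA quality in any result below was not tested, and a correction for GC content was run as an alternative.

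**Figure D1:**
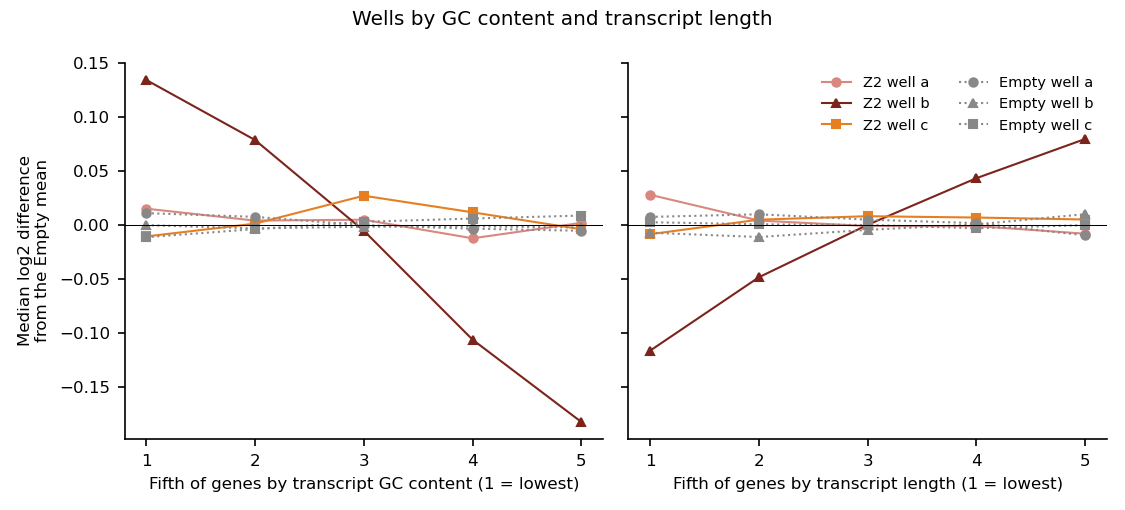
Median log2 difference of each well from the mean of the Empty wells, over 5 equal bins of the tested genes by transcript GC content (left) and by transcript length (right). Z2 wells are drawn as solid lines and Empty wells as dotted lines. Z2 b lies at 0.13 in the lowest GC bin and at -0.18 in the highest, while Z2 a, Z2 c and the 3 Empty wells stay near 0.

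The genes furthest from the other wells in both Z2 a and Z2 b were RN7SL1, RN7SL2 and PABPN1. RN7SL1 and RN7SL2, which encode the RNA of the signal recognition particle, had 203, 12.3 and 42.3 CPM and 198, 17.8 and 80 CPM in Z2 wells a, b and c. In Empty wells they had 145 to 157 CPM and 158 to 230.0 CPM. PABPN1, a nuclear poly(A)-binding protein gene, had 48.7, 13.9 and 29.7 CPM in Z2 wells, against 48 to 49.2 CPM in Empty wells. For all 3 the Z2 wells spread far more widely than the Empty wells, and none was called (edgeR adjusted p = 0.496, 0.314 and 0.205). In the other direction, the metallothionein gene MT2A had 413, 866 and 579.8 CPM in Z2 wells, the membrane scaffold gene UACA 35.8, 66.8 and 39.1 CPM and the transporter gene SLC16A6 32.8, 72.6 and 52.1 CPM. FABP1, the liver fatty acid binding protein, had 386, 170.2 and 371 CPM in Z2 wells, against 321, 370.5 and 419 CPM in Empty wells. Among the Z2 wells, well a was low in PDGFB (16.5 CPM, against 38.9 and 31 CPM in b and c) and in GPRC5A (21.1 CPM, against 43 and 33.5 CPM). Empty wells a, b and c had 21.7, 33.3 and 25.9 CPM of PDGFB and 17.8, 20.5 and 15.3 CPM of GPRC5A. Z2 a thus lay above every Empty well at GPRC5A. Well c was high in AKNA and PKD1P1 and low in the mitotic gene HMMR, in KLF5 and in LRRC40, by at most 0.60 on the log2 scale. None of these genes was called.

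In Z2 3654 of the 15289 tested genes were called, which is 23.9%, with 1900 higher (12.4%) and 1754 lower (11.5%). Of the 3654, 414 changed at least 2-fold (2.71% of tested genes), 324 higher (2.12%) and 90 lower (0.589%), and 250 did so when genes needed 1 CPM in 3 libraries. Most changes were small, since 1736 of the called genes changed less than 1.25-fold, 1024 between 1.25- and 1.5-fold and 480 between 1.5- and 2-fold. The median log2 fold change over all tested genes was 0.0035. Z2 wells did not overlap Empty wells at 5618 genes (36.7%), 2883 with Z2 above (18.9%) and 2735 with Z2 below (17.9%), and 3483 of the 3654 called genes were among them. Wells a, b and c lay on the called side of the Empty mean at 3653, 3650 and 3654 of the called genes, by a median of 0.26, 0.42 and 0.34 on the log2 scale. Protein-coding genes were called more often than long non-coding ones, 3446 of 13359 (25.8%) against 105 of 933 (11.3%). These classes were not matched for read level, and its part in the difference was not tested. A fit of the 6 libraries alone, which has fewer residual degrees of freedom and takes its spread from these wells, called fewer genes, 2390 of 14840 (16.1%), with 1304 higher (8.79%) and 1086 lower (7.32%). The 2 fits shared 2364 genes, 64.7% of the first list and 98.9% of the second. The 12-library fit called 3185 genes without Z2 b, 4411 without Z2 a and 2781 without Z2 c, and 2130 without Empty a.

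**Figure D2:**
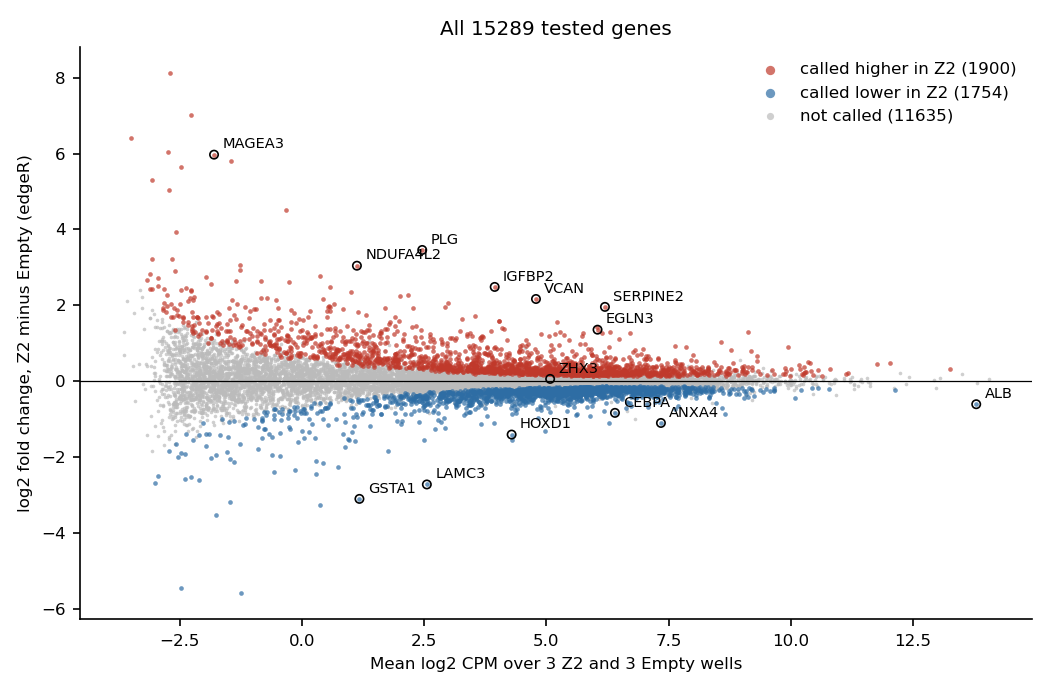
Fitted log2 fold change of Z2 minus Empty (vertical) against mean log2 CPM over the 6 wells (horizontal) for each tested gene, with called genes in colour. ZHX3 lies at 0.06, PLG at 3.46 and GSTA1 at -3.10, and most called genes lie close to 0.

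Among protein-coding genes that averaged 1 log2 CPM or more over the 6 libraries and had wells that did not overlap, the largest increases were in PLG, NDUFA4L2 and IGFBP2. Here and below, ± is the SE, and a lone value in parentheses after a gene is its log2 fold change. PLG, which encodes plasminogen, the precursor of the fibrin-cutting protease plasmin, had 16.8, 19.3 and 19.4 CPM in Z2 wells a, b and c, against 1.69, 1.13 and 2.18 CPM in Empty wells a, b and c (log2 fold change 3.46 ± 0.14, edgeR adjusted p = 2.18e-10). NDUFA4L2, a mitochondrial protein induced by low oxygen, had 5.37, 6.76 and 6.47 CPM in Z2 wells a, b and c, against 0.589, 0.745 and 0.888 CPM in Empty wells a, b and c (log2 fold change 3.04 ± 0.18, edgeR adjusted p = 6.3e-09). IGFBP2, a binding protein of insulin-like growth factors, had 37.8, 37.3 and 34.1 CPM in Z2 wells a, b and c, against 5.95, 7.38 and 6.16 CPM in Empty wells a, b and c (log2 fold change 2.49 ± 0.17, edgeR adjusted p = 1.87e-06). In all 3 the lowest Z2 well was more than 4 times the highest Empty well. Means in Z5 and Z9 were 22.4 and 21.7 CPM for PLG, 5.80 and 4.91 CPM for NDUFA4L2 and 39.0 and 39.8 CPM for IGFBP2. Empty thus stood apart from Z2, Z5 and Z9 at these genes. VCAN, the matrix proteoglycan versican, had 55.5, 62.7 and 57.5 CPM in Z2 wells, against 12.2, 13.2 and 13.6 CPM in Empty wells (log2 fold change 2.17 ± 0.06, edgeR adjusted p = 2.35e-13). SERPINE2, a protease inhibitor also known as protease nexin 1, had 120.2, 175 and 142 CPM in Z2 wells, against 34.7, 41.5 and 36.2 CPM in Empty wells (log2 fold change 1.96 ± 0.15, edgeR adjusted p = 6.98e-06). The thiamine transporter gene SLC19A3 had 14.8, 14 and 16 CPM in Z2 wells, against 3.77, 3.92 and 3.95 CPM in Empty wells (log2 fold change 1.94 ± 0.08, edgeR adjusted p = 1.55e-10). SETBP1 (2.36), the actin-binding ABLIM3 (2.27), the phospholipase PLA2G16 (2.25) and the cell adhesion gene SDK1 (2.06) complete the 10 largest increases within these limits.

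Within the same limits the largest decrease was in GSTA1, an alpha-class glutathione transferase, with 0.921, 0.692 and 0.696 CPM in Z2 wells a, b and c, against 9.38, 4.61 and 5.96 CPM in Empty wells a, b and c (log2 fold change -3.10 ± 0.26, edgeR adjusted p = 6.15e-07). Its level is uncertain because near-identical copies share reads. LAMC3, a laminin chain of basement membranes, had 2.22, 1.98 and 2.65 CPM in Z2 wells a, b and c, against 13.4, 14.8 and 16.9 CPM in Empty wells a, b and c (log2 fold change -2.72 ± 0.14, edgeR adjusted p = 5.67e-10). The homeobox gene HOXD1 had 14, 10.5 and 11.6 CPM in Z2 wells, against 35.6, 29.1 and 31.2 CPM in Empty wells (log2 fold change -1.41 ± 0.22, edgeR adjusted p = 0.00151). These wells did not overlap in any of the 3 genes. RTN4RL2, a Nogo receptor relative, fell (-1.54), as did the carbohydrate sulfotransferase CHST9 (-1.54), the membrane-curving BIN1 (-1.57), the endoplasmic reticulum protein ERP27 (-1.33), the aldo-keto reductase AKR1B10 (-1.32) and the prostaglandin reductase PTGR1 (-1.25). The betaine transporter SLC6A12 was called lower (log2 fold change -1.84 ± 0.47, edgeR adjusted p = 0.0199) at 2.61, 0.941 and 2.09 CPM in Z2 wells, against 9.03, 4.78 and 6.49 CPM in Empty wells, but it was not called without Z2 b, without Z2 c or without Empty a.

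**Figure D3:**
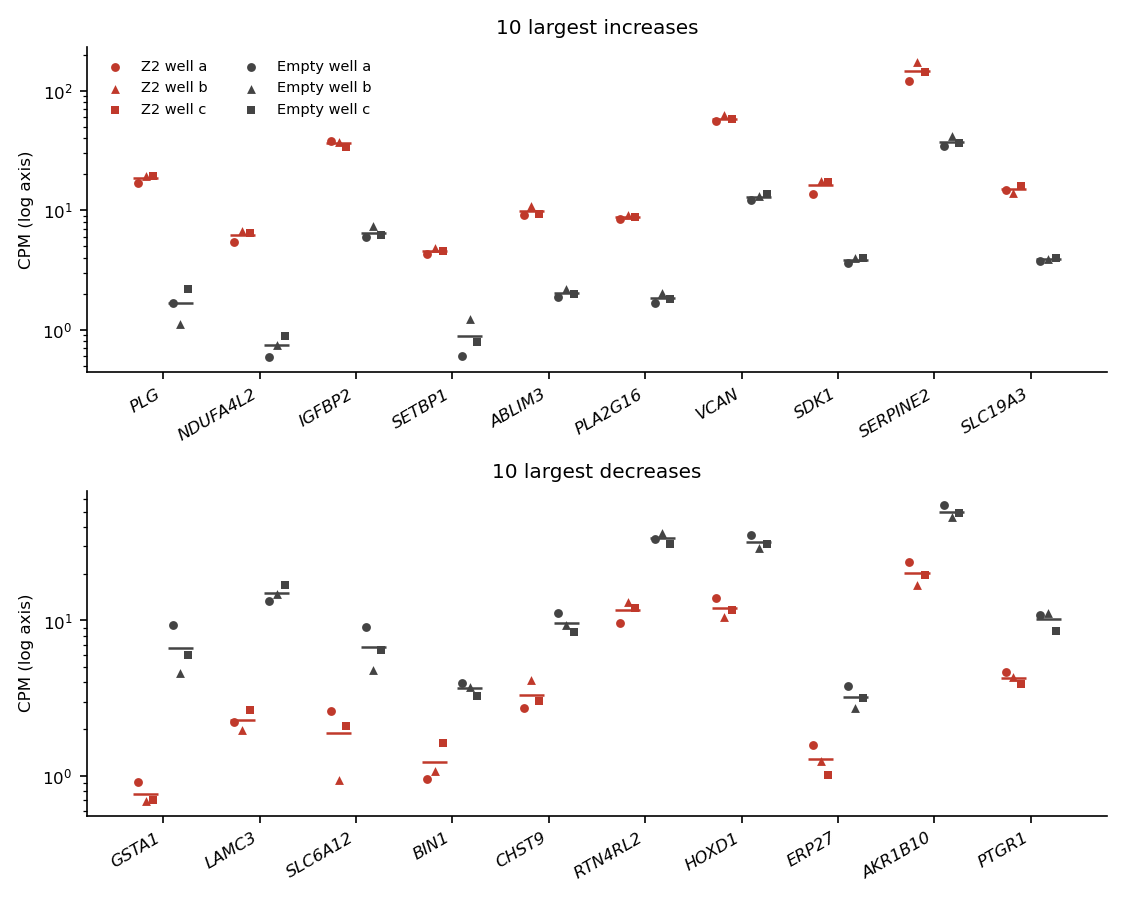
CPM on a log axis in each well for the 10 largest increases (top) and the 10 largest decreases (bottom) in Z2, with horizontal bars at the mean of 3 wells and Z2 left of Empty for each gene. PLG lies between 16.8 and 19.4 CPM in Z2 and between 1.13 and 2.18 CPM in Empty, and GSTA1 between 0.692 and 0.921 CPM in Z2 and between 4.61 and 9.38 CPM in Empty.

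Ranked by adjusted p rather than by size, the leading well expressed genes after VCAN were GNG4, ARSI, CPED1 and HEPACAM, which rose. GNG4, a G protein gamma subunit, had 74, 77.3 and 79.8 CPM in Z2 wells, against 43.7, 41.6 and 43.3 CPM in Empty wells (0.85). ARSI, an arylsulfatase gene, rose by 1.26, CPED1 by 1.10 and the cell adhesion gene HEPACAM by 1.22 on the log2 scale. With RTN4RL2, the leading decreases were ANXA4, WDR13, CPN2 and HSD17B2. ANXA4, a calcium-dependent membrane-binding annexin, had 104, 119 and 111 CPM in Z2 wells, against 249.1, 239 and 226 CPM in Empty wells (log2 fold change -1.10 ± 0.07, edgeR adjusted p = 5.7e-09). WDR13 fell by 0.67, CPN2, the regulatory subunit of a plasma carboxypeptidase, by 0.79, and HSD17B2, which inactivates sex steroids, by 0.80 on the log2 scale. The Z2 and Empty wells of these 9 genes did not overlap.

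A few genes were nearly silent in 1 of the 2 lines. With a total of at most 7 counts over the wells of 1 line and at least 90 over those of the other, a rule chosen after the values were seen, 5 called genes were found on in Z2 and 2 on in Empty. MAGEA3, a cancer-testis antigen gene, had 91, 70 and 90 counts in Z2 wells and 0, 4 and 0 in Empty wells, a ratio of 68.7 with a 95% counting interval of 26.5 to 254. MAGEA6 had 99 counts over the Z2 wells and 0 over the Empty wells, at least 36.1-fold higher against a floor of 3 counts over the group. MAGEA3 and MAGEA6 are nearly identical, so reads may be split between them. PRAME, another antigen gene of this class, had 327 counts in Z2 and 6 in Empty, a ratio of 59.6 (27.1 to 164). ENPP4, a membrane phosphodiesterase gene, had 164 counts in Z2 and 1 in Empty, and CSMD1, a large membrane protein gene, 109 and 2. FLRT2, a membrane protein of axon guidance, had 3, 2 and 2 counts in Z2 wells and 143, 97 and 144 in Empty wells, a 50.1-fold lower level. The zinc finger gene ZNF676 had 2 counts in Z2 and 113 in Empty. All 7 had the same side in the other ZHX3-labelled lines, where MAGEA3 had 269 counts in Z5 and 206 in Z9 and FLRT2 7 and 9, so Empty stood apart from the other 3 lines at these genes. These intervals cover counting error only.

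Genes of cell division were lower in Z2. Of 30 tested members of a mitosis list, 22 were called lower and 0 higher, where 11.5% and 12.4% of all tested genes were. The median log2 fold change was -0.37, and the lists below are to be read beside the same shares. Of 30 members of an S phase and DNA replication list, 18 were called lower and 0 higher, with a median of -0.34. In bulk RNA, fewer dividing cells and less of these transcripts per cell cannot be told apart. CDC20, an activator of the anaphase-promoting complex, had 33.9, 30.8 and 29.3 CPM in Z2 wells a, b and c, against 49.6, 45.6 and 40.9 CPM in Empty wells a, b and c (log2 fold change -0.53 ± 0.08, edgeR adjusted p = 0.000216). MKI67, the Ki-67 proliferation marker, had 48.6, 51.2 and 45.9 CPM in Z2 wells a, b and c, against 74.5, 66.2 and 61.6 CPM in Empty wells a, b and c (log2 fold change -0.47 ± 0.08, edgeR adjusted p = 0.000403), and BIRC5, which encodes survivin, 42, 37.8 and 37.2 CPM in Z2 wells, against 65.1, 56.7 and 51.2 CPM in Empty wells (log2 fold change -0.56 ± 0.09, edgeR adjusted p = 0.000406). The wells did not overlap for any of the 3 genes, and Empty a was the highest Empty well in each. Means in Z5 and Z9 were 35.3 and 36.8 CPM for CDC20, 48.9 and 47.3 CPM for MKI67 and 44.7 and 43.0 CPM for BIRC5. The Empty mean was thus above those of Z2, Z5 and Z9 at these genes.

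CDC6, a loader of the replicative helicase, had 27.8, 26.3 and 23.4 CPM in Z2 wells, against 50, 38 and 37.9 CPM in Empty wells (log2 fold change -0.70 ± 0.13, edgeR adjusted p = 0.00199). The chromatin assembly subunit CHAF1A fell by 0.86 and the helicase subunit MCM7 by 0.35 on the log2 scale. UHRF1, which recruits the maintenance DNA methyltransferase and is named after its values were seen, had 39.1, 37.2 and 34.4 CPM in Z2 wells, against 82.2, 67.3 and 53.1 CPM in Empty wells (-0.87). E2F1 (-0.41), PLK1 (-0.42), AURKB (-0.40) and FOXM1 (-0.32), also named after their values were seen, fell. By well, the mitosis median was -0.37, -0.22 and -0.48 in Z2 a, b and c, and the S phase median -0.30, -0.24 and -0.41. The counts of members called were 21 and 17 without Z2 b, 14 and 12 without Z2 c, and 13 and 11 without Empty a. The fit of the 6 libraries called 19 and 17, and the GC correction 22 and 16. CHAF1A and UHRF1 lie in the first 6 Mb of chromosome 19 and CDC20 in the first 90 Mb of chromosome 1, regions described at the end, and 20 and 16 members were called without the genes of both regions. Of 16 replication-dependent histone genes 5 were called higher and 0 lower, and 11 were not called (median 0.11). The well medians were 0.25 and 0.35 in Z2 a and c and -0.011 in Z2 b. HIST1H2BK had 4.43, 4.07 and 5.10 CPM in Z2 wells, against 2.33, 2.04 and 1.84 CPM in Empty wells (1.14), while HIST1H2BD (0.46) and HIST2H2BE (0.47) rose less, and HIST2H2BE was not called without Z2 b, Z2 c or Empty a. Histone genes share sequence with other copies. The list had 3 members called without each of these 3 wells, and its median was 0.28 without Z2 b.

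The promoters of the cell cycle genes are shown because their members fell together and because the CCAAT box is the element bound by NF-Y. They are the 250 bases before the start of each gene, 5′ to 3′ on its strand, from RefSeq on GRCh38.p14, with each CCAAT box in capitals, read as CCAAT or as its reverse complement ATTGG. CDC20 lies on chromosome 1 (plus strand, chr1:43358731-43358980), CDC6 on chromosome 17 (plus strand, chr17:40287629-40287878), MKI67 on chromosome 10 (minus strand, chr10:128126424-128126673) and MCM7 on chromosome 7 (minus strand, chr7:100101398-100101647).
CDC20: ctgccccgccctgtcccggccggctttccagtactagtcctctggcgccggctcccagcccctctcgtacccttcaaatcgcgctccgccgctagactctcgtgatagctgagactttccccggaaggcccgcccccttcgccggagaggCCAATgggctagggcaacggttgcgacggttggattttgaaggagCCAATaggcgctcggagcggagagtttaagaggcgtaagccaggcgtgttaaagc
CDC6: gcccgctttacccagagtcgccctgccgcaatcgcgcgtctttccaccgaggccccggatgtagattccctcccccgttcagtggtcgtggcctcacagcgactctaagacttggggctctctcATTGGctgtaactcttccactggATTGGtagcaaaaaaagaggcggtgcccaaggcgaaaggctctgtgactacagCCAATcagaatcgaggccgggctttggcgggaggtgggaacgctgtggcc
MKI67: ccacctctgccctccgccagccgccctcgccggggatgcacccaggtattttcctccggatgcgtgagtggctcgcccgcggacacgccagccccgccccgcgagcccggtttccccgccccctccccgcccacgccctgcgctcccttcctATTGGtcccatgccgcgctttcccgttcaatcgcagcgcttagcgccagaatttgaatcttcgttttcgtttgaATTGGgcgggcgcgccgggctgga
MCM7: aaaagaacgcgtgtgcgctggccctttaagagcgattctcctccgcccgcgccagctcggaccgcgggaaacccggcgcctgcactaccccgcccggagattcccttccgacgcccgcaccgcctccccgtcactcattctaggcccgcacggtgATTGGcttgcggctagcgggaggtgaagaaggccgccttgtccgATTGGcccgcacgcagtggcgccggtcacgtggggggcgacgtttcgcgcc

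The 4 promoters hold 2, 3, 2 and 2 such boxes. Among 27195 RefSeq promoters of this length 33.0% hold CCAAT on either strand, and among 11626 tested genes with a promoter 34.8%. The share was 31.8% of 1470 genes called higher, 42.4% of 1422 called lower and 34.1% of 8734 not called. It was 30.7% and 42.4% for the higher and lower calls of the 6-library fit, and 31.5% and 42.9% after the GC correction. In the lists, 19 of 24 mitosis promoters and 18 of 26 S phase promoters held the box. The box was also in 18 of 20 promoters of the unfolded protein response list, of which 2 members rose and 2 fell, and in 11 of 13 histone promoters. Other motifs were counted in the same promoters. TTTGAA was in 13 of 24 mitosis promoters and 1 of 26 S phase promoters. The CDC20 and MKI67 promoters above hold it in lower case. It was in 8.64% of tested genes with a promoter, 8.37% of those called higher and 9.77% of those called lower. The same shares were 5.93%, 7.82% and 5.13% for TATAAA, and 12.09%, 10.95% and 13.01% for TGACNNNGC (N is any base). CCAAT was thus not the only motif frequent in mitosis promoters. These matches describe letters in a window and not sites bound by a factor.

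Complement and acute phase genes were called higher more often than lower. Of 17 tested complement genes 9 were called higher and 1 lower (median 0.21), with well medians of 0.16, 0.31 and 0.34 in Z2 a, b and c. C8B, a subunit of the membrane attack complex, had 10.4, 9.68 and 11.1 CPM in Z2 wells, against 4.79, 4.78 and 5.74 CPM in Empty wells (log2 fold change 1.02 ± 0.09, edgeR adjusted p = 5.65e-07). CFI, the protease that inactivates C3b and C4b, had 292, 316 and 302 CPM in Z2 wells, against 205, 207 and 208 CPM in Empty wells (log2 fold change 0.55 ± 0.05, edgeR adjusted p = 7.77e-07), and C3, the central component, had 4499, 5002 and 5391 CPM in Z2 wells, against 3396, 3534 and 3669 CPM in Empty wells (log2 fold change 0.49 ± 0.07, edgeR adjusted p = 0.000124). The Z2 and Empty wells did not overlap in any of them. C7 (0.75), C5 (0.50) and CFB (0.42) rose and C6 (-0.85) fell, the last 4 named after their values were seen. Without Z2 b 9 members were called.

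Of 15 acute phase genes 6 were called higher and 0 lower (median 0.29). Haptoglobin, HP, which binds free haemoglobin, had 75.8, 86.8 and 73.4 CPM in Z2 wells, against 51.2, 45.1 and 44.4 CPM in Empty wells (log2 fold change 0.75 ± 0.08, edgeR adjusted p = 4.54e-06). FGG, a fibrinogen chain, rose (0.42), and SOCS3, an inhibitor of cytokine signalling induced by IL6, had 3.72, 4.46 and 3.46 CPM in Z2 wells, against 1.71, 2.29 and 2.05 CPM in Empty wells (log2 fold change 0.94 ± 0.15, edgeR adjusted p = 0.000358). The median of the acute phase list was 0.16 without Z2 c, and the 6-library fit called 5 members higher and 1 lower. Of 21 coagulation genes 6 rose and 1 fell (median 0.13), and besides PLG, CPB2, a carboxypeptidase that protects fibrin from plasmin, had 68.3, 94.4 and 73.7 CPM in Z2 wells, against 49.8, 50.6 and 45.2 CPM in Empty wells (0.70).

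Plasma carrier proteins were mixed, with 8 of 24 called higher and 4 lower (median 0.085). SERPINA3, the inhibitor alpha-1-antichymotrypsin, had 1300.2, 1257 and 1460.5 CPM in Z2 wells, against 677, 663 and 825 CPM in Empty wells (log2 fold change 0.89 ± 0.08, edgeR adjusted p = 5.6e-07), and VTN, which encodes vitronectin, 311, 313 and 353 CPM in Z2 wells, against 195, 196 and 217 CPM in Empty wells (log2 fold change 0.68 ± 0.06, edgeR adjusted p = 5.6e-07). ALB had 11359, 12374 and 10818 CPM in Z2 wells, against 18437, 17208 and 16944 CPM in Empty wells (log2 fold change -0.61 ± 0.07, edgeR adjusted p = 5.31e-06), with every Z2 well below every Empty well. SERPINA1, alpha-1-antitrypsin, had 9829, 10743 and 12235 CPM in Z2 wells, against 8178, 8785 and 9228 CPM in Empty wells (0.32), and HPX, which encodes the haem carrier hemopexin and is named after its values were seen, 10.9, 6.97 and 8.13 CPM in Z2 wells, against 21.2, 17.1 and 18.7 CPM in Empty wells (-1.13). Albumin and hemopexin thus fell beside haptoglobin, vitronectin and SERPINA3, which rose.

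**Figure D4:**
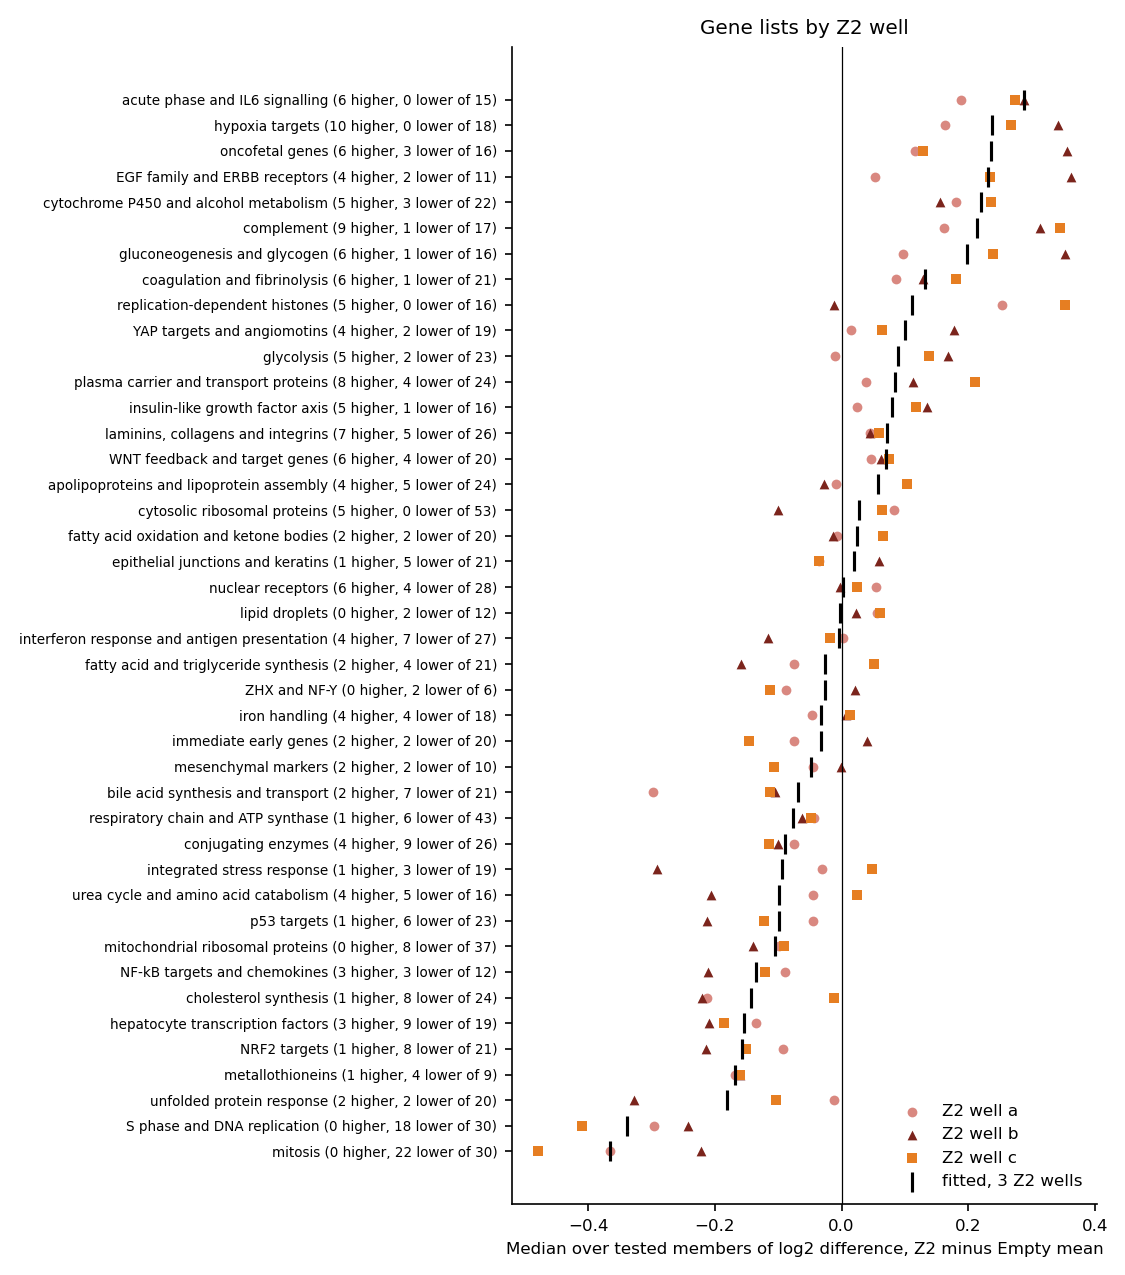
Median over the tested members of each gene list, cell type marker lists left out, of the log2 difference from the Empty mean in Z2 wells a, b and c, with the fitted median as a black bar and the counts of members called in the labels. Mitosis and S phase lists lie lowest, at -0.37 and -0.34, and the acute phase and hypoxia lists highest, at 0.29 and 0.24, with well b often furthest from the other wells.

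Genes induced by low oxygen were higher. Of 18 tested hypoxia targets 10 were called higher and 0 lower, with a median of 0.24 and well medians of 0.16, 0.34 and 0.27 in Z2 a, b and c. EGLN3, a prolyl hydroxylase that marks HIF subunits for degradation and is itself a HIF target, had 89.4, 123 and 108 CPM in Z2 wells a, b and c, against 37.8, 46.8 and 39.9 CPM in Empty wells a, b and c (log2 fold change 1.36 ± 0.13, edgeR adjusted p = 2.38e-05). P4HA2, a collagen prolyl hydroxylase, had 123, 136 and 135 CPM in Z2 wells, against 98.9, 107 and 97.4 CPM in Empty wells (log2 fold change 0.37 ± 0.06, edgeR adjusted p = 0.000204). PDK1 (0.43), BNIP3L (0.38) and CA9 (0.37), named after their values were seen, also rose. Without Z2 b 9 were called.

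Of 23 glycolysis genes 5 were called higher and 2 lower (median 0.090), and 11 were called after the GC correction. HK1, the hexokinase of most tissues, had 15.3, 15.9 and 17.1 CPM in Z2 wells, against 7.10, 7.0 and 6.14 CPM in Empty wells (log2 fold change 1.25 ± 0.08, edgeR adjusted p = 2.18e-08). The glucose transporter SLC2A1 had 1399, 1654 and 1651 CPM in Z2 wells, against 1085, 1142 and 1065 CPM in Empty wells (log2 fold change 0.52 ± 0.07, edgeR adjusted p = 3.78e-05), whereas SLC2A2, the transporter of hepatocytes, had 18.1, 18.5 and 17.9 CPM in Z2 wells, against 24.8, 24.1 and 26.5 CPM in Empty wells (log2 fold change -0.47 ± 0.06, edgeR adjusted p = 4.57e-05). The transporters moved in opposite directions, with no overlap of the wells in either. Of 16 genes of gluconeogenesis and glycogen 6 rose and 1 fell (median 0.20), 4 being called without Empty a and 4 without Empty c. G6PC, the glucose-6-phosphatase, had 3.87, 5.59 and 5.44 CPM in Z2 wells, against 2.26, 2.34 and 2.07 CPM in Empty wells (log2 fold change 1.16 ± 0.20, edgeR adjusted p = 0.000817), PPARGC1A, a coactivator of the fasting response, rose (0.52), and so did pyruvate carboxylase, PC (0.27).

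Genes of cholesterol synthesis were lower more often than higher, 8 against 1 of 24 (median -0.14), and 4 were called without Empty c. The sterol isomerase EBP had 51.2, 40.6 and 50.8 CPM in Z2 wells, against 60.8, 61 and 60 CPM in Empty wells (log2 fold change -0.35 ± 0.07, edgeR adjusted p = 0.00183). The member that rose was INSIG1, a sterol sensor that holds back cholesterol synthesis, with 75 counts over the Z2 wells and 5 over the Empty wells (ratio 16.4, 95% counting interval 6.73 to 52.0). These few counts lie below 1 CPM, and the interval covers counting error only. How fully the annotation captured reads of INSIG1 is not known, so its level is uncertain. Well medians were -0.21, -0.22 and -0.012 in Z2 a, b and c. In fatty acid and triglyceride synthesis 2 of 21 rose and 4 fell (median -0.026). The elongase ELOVL5 rose (0.59), and DGAT1 (-0.46) and DGAT2 (-0.36), which make triglycerides, fell. Of 20 genes of fatty acid oxidation and ketone bodies 2 rose and 2 fell, close to the 12.4% and 11.5% over all tested genes. Among them were PPARA (0.21), CPT2 (-0.23) and EHHADH (-0.20), and PPARA and CPT2 were not called without Empty a or Empty b, nor PPARA without Z2 b or Z2 c, nor CPT2 without Z2 a. The list had 2 members called without Z2 c and 1 without Empty a or Empty b. On lipid droplets 0 of 12 rose, and PLIN3 (-0.29) and PLIN4 (-0.46), both in the first 6 Mb of chromosome 19, fell.

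Of 24 genes of apolipoproteins and lipoprotein assembly 4 rose and 5 fell (median 0.058), where 12.4% and 11.5% of all tested genes did. MTTP, which loads lipid onto apolipoprotein B, had 127, 159 and 135 CPM in Z2 wells, against 98.3, 99 and 104 CPM in Empty wells (log2 fold change 0.48 ± 0.07, edgeR adjusted p = 7e-05). APOA4 had 5.13, 4.15 and 5.17 CPM in Z2 wells, against 9.32, 9.90 and 9.91 CPM in Empty wells (log2 fold change -1.01 ± 0.10, edgeR adjusted p = 1.25e-06), and C19orf80, now named ANGPTL8, which inhibits lipoprotein lipase, fell (-0.76). CETP (-0.65) fell and ANGPTL4 (0.85), another lipase inhibitor, rose, both named after their values were seen.

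Transcription factors of hepatocytes were lower more often than higher, 9 against 3 of 19 (median -0.15). CEBPA, a factor of mature hepatocytes, had 76.4, 45.5 and 70.8 CPM in Z2 wells a, b and c, against 122, 105 and 116 CPM in Empty wells a, b and c (log2 fold change -0.83 ± 0.16, edgeR adjusted p = 0.00396). Its Z2 wells lay below all Empty wells, and Z2 b was the lowest. FOXA1, which opens liver enhancers, had 63.6, 62 and 60.5 CPM in Z2 wells, against 83, 76.7 and 79.6 CPM in Empty wells (log2 fold change -0.36 ± 0.06, edgeR adjusted p = 0.000621), and TBX3 rose (0.30). HNF4A had 293, 261 and 309 CPM in Z2 wells, against 315, 316 and 333 CPM in Empty wells and was not called (log2 fold change -0.16 ± 0.06, edgeR adjusted p = 0.0605). The 6-library fit called 7 members of this list and the fit without Empty a 6. Among 28 nuclear receptors 6 rose and 4 fell (median 0.0016). NR2F1 rose (0.35), and THRB (-0.38) and NR0B2 (-0.48), the repressor of bile acid synthesis also called SHP, fell.

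Of 21 genes of bile acid synthesis and transport 2 rose and 7 fell (median -0.068, and -0.17 to -0.19 without Z2 b, Z2 c or Empty b). BAAT, which conjugates bile acids to amino acids, had 26.8, 32 and 27.2 CPM in Z2 wells a, b and c, against 9.32, 11 and 8.24 CPM in Empty wells a, b and c (log2 fold change 1.59 ± 0.13, edgeR adjusted p = 7.8e-07), and the phospholipid exporter ABCB4 rose (0.59). The basolateral exporter ABCC3 had 42.3, 40.8 and 41.8 CPM in Z2 wells, against 59.1, 55.7 and 57.8 CPM in Empty wells (log2 fold change -0.47 ± 0.05, edgeR adjusted p = 2.37e-06). Of 22 genes of cytochromes P450 and alcohol metabolism 5 rose and 3 fell (median 0.22). CYP2J2, an epoxygenase of fatty acids, had 6.41, 6.46 and 6.74 CPM in Z2 wells, against 2.61, 2.50 and 3.11 CPM in Empty wells (1.25), FMO5, a flavin monooxygenase, 131, 157 and 156 CPM in Z2 wells, against 86, 92.4 and 97.1 CPM in Empty wells (0.69), and ALDH1A1, which makes retinoic acid, 167, 148 and 148 CPM in Z2 wells, against 279.7, 245 and 248.5 CPM in Empty wells (-0.74). None of these wells overlapped between the lines.

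Of 26 conjugating enzymes 4 rose and 9 fell (median -0.090). UGT2B4 had 20.2, 18.5 and 19.6 CPM in Z2 wells, against 9.14, 7.42 and 9.51 CPM in Empty wells (1.16) and UGT2A3 fell (-0.42), both glucuronosyltransferases whose relatives share sequence. NRF2 targets, which respond to oxidants, were lower in 8 and higher in 1 of 21 (median -0.16). AKR1B10 had 23.7, 17 and 19.5 CPM in Z2 wells, against 54.8, 46.4 and 49.2 CPM in Empty wells (log2 fold change -1.32 ± 0.13, edgeR adjusted p = 7.43e-06), NQO1, a quinone reductase, 251, 229 and 224 CPM in Z2 wells, against 334, 293 and 284 CPM in Empty wells (log2 fold change -0.37 ± 0.07, edgeR adjusted p = 0.00183), and SRXN1, which repairs peroxiredoxins, fell (-0.30). Of 9 tested members of a list of metallothioneins and their regulator MTF1, 1 rose and 4 fell, MT1F (-0.44), MT1G (-0.55) and MT1M (21 counts in Z2 against 90 in Empty) among them, and 3 were called without Z2 c, without Empty a and without Empty b. Metallothionein copies share sequence, and MT2A varied between the Z2 wells as given above.

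In iron handling 4 of 18 genes rose and 4 fell (median -0.032), 4 being called without Z2 c and 4 without Empty a. Ceruloplasmin, CP, a copper oxidase that loads iron onto transferrin, had 663, 889 and 772 CPM in Z2 wells, against 399, 456 and 481 CPM in Empty wells (log2 fold change 0.80 ± 0.10, edgeR adjusted p = 5.86e-05). TMPRSS6, a protease that restrains hepcidin, fell (-0.51), and the transferrin sensor TFR2 rose (0.34). In the urea cycle and amino acid catabolism 4 of 16 genes rose and 5 fell (median -0.099). The arginase genes moved apart, since ARG2, the mitochondrial form, rose (0.41) and ARG1 (-0.87), the liver form, named after its values were seen, fell. Glutamine synthetase, GLUL, rose (0.37), as did HPD, an enzyme of tyrosine breakdown (0.56).

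The EGF receptor ligands AREG and EREG rose. Of 11 genes of this axis 4 rose and 2 fell (median 0.23). Amphiregulin, AREG, had 22.2, 24.8 and 22.7 CPM in Z2 wells a, b and c, against 8.28, 10.4 and 8.95 CPM in Empty wells a, b and c (log2 fold change 1.33 ± 0.10, edgeR adjusted p = 6.87e-08). Epiregulin, EREG, had 3.06, 4.38 and 2.86 CPM in Z2 wells, against 0.628, 0.711 and 0.505 CPM in Empty wells (log2 fold change 2.49 ± 0.21, edgeR adjusted p = 2.92e-07), and DUSP6, a phosphatase induced by ERK signalling, rose (0.41), while SPRY2 (-0.28) and SPRY4 (-0.30), inhibitors of the same pathway named after their values were seen, fell. The median of this list was -0.10 when no filter on low counts was used. Of 16 genes of the insulin-like growth factor axis 5 rose and 1 fell (median 0.079), and 3 were called without Z2 c. IGFBP3 had 88, 164 and 125 CPM in Z2 wells, against 49.4, 60.7 and 43.2 CPM in Empty wells (log2 fold change 1.30 ± 0.27, edgeR adjusted p = 0.0096), with Z2 a the lowest and Z2 b the highest Z2 well, and IGF2BP1, an RNA-binding protein, fell (-0.22).

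Of 20 genes of WNT feedback 6 rose and 4 fell (median 0.070). The WNT inhibitor APCDD1 had 3.38, 3.30 and 3.18 CPM in Z2 wells, against 0.549, 0.329 and 0.551 CPM in Empty wells (log2 fold change 2.78 ± 0.17, edgeR adjusted p = 8.73e-09), and NOTUM, which removes the lipid of WNT proteins, 563, 481 and 546 CPM in Z2 wells, against 385, 388 and 368 CPM in Empty wells (log2 fold change 0.48 ± 0.06, edgeR adjusted p = 1.88e-05). DKK1 (-0.54) and DKK4 (-1.47), inhibitors that are also WNT targets and were named after their values were seen, fell. Of 19 YAP targets and angiomotins 4 rose and 2 fell (median 0.10). NT5E, the ecto-enzyme CD73, had 129.9, 131 and 134 CPM in Z2 wells, against 52.5, 59.7 and 70.2 CPM in Empty wells (log2 fold change 1.11 ± 0.08, edgeR adjusted p = 3.42e-08), and AMOT, angiomotin, 2.57, 3.13 and 2.50 CPM in Z2 wells, against 7.20, 5.44 and 5.35 CPM in Empty wells (log2 fold change -1.13 ± 0.16, edgeR adjusted p = 9.41e-05). CRIM1 rose (0.24) but was not called without Empty a or Empty c, and the list then had 2 members called, against 3 in the 6-library fit.

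Of 16 oncofetal genes, expressed in embryos and tumours, 6 rose and 3 fell (median 0.24). CD24, a surface glycoprotein of progenitor cells, had 99.1, 119 and 102 CPM in Z2 wells, against 41.2, 43.4 and 35.4 CPM in Empty wells (log2 fold change 1.42 ± 0.11, edgeR adjusted p = 7.67e-07), and LIN28B, a blocker of let-7 maturation, 79.3, 82.4 and 69.8 CPM in Z2 wells, against 135, 124 and 119.9 CPM in Empty wells (log2 fold change -0.71 ± 0.07, edgeR adjusted p = 2.9e-06). Of 26 laminins, collagens and integrins 7 rose and 5 fell (median 0.071). The collagen receptor chain ITGA1 had 90.7, 137 and 104 CPM in Z2 wells, against 42.8, 49.5 and 46 CPM in Empty wells (log2 fold change 1.26 ± 0.15, edgeR adjusted p = 0.000179) and ITGA6 rose (0.30), whereas the laminin chains LAMC3 and LAMA1 (-2.0, named after its values were seen) fell. Of 21 genes of epithelial junctions and keratins 1 rose and 5 fell (median 0.020), with 11 called without Z2 a. CDH1, E-cadherin, had 18.7, 22.3 and 24.5 CPM in Z2 wells, against 33.3, 36.1 and 39.4 CPM in Empty wells (log2 fold change -0.73 ± 0.10, edgeR adjusted p = 8.21e-05), ESRP2, a splicing factor of epithelia, fell (-0.27), and CLDN6, a claudin of embryonic epithelia, rose (0.74). Of 10 tested mesenchymal markers 2 rose, SPARC (0.85) and MMP2 (1.64), and 2 fell, TAGLN (-0.96) and SNAI2 (-2.05, named after its values were seen).

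Stress and immune lists moved little or in both directions. Of 27 genes of interferon response and antigen presentation 4 rose and 7 fell (median -0.0044). IFITM1 had 2.18, 3.46 and 3.27 CPM in Z2 wells, against 0.471, 0.867 and 0.919 CPM in Empty wells (1.96), NLRC5, an activator of MHC class I genes, fell (-0.77) and so did the peptide transporter TAP2 (-0.50). Of 12 NF-kB targets and chemokines 3 rose and 3 fell (median -0.13), CCL20 (0.28) and TNFAIP3 (0.35) higher and NFKB2 (-0.29) lower. Of 20 immediate early genes 2 rose, FOSL2 (0.41) and KLF4 (0.62), and 2 fell, IER3 (-0.57) and EGR1 (-0.88, named after its values were seen). Both counts are close to the 12.4% higher and 11.5% lower over all tested genes. The median of this list was -0.033, and it was -0.14 without Empty c.

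Of 19 genes of the integrated stress response 1 rose, VLDLR (1.10), a lipoprotein receptor with 57.2, 66.7 and 69.1 CPM in Z2 wells, against 28.6, 27.9 and 33.7 CPM in Empty wells. NUPR1 (-0.92), PPP1R15A (-0.41) and DDIT4 (-0.26) fell. In the unfolded protein response list the well medians were -0.011, -0.33 and -0.10 in Z2 a, b and c, well b being the lowest. The fitted median was -0.18, and it was -0.053 without Z2 b. Of the 20 tested genes of this list 2 rose, DNAJB9 (0.26) and ATF6 (0.19), and 2 fell, XBP1 (-0.18) and SEC61B (-0.36). Both counts are close to the 12.4% and 11.5% over all tested genes. ATF6 was not called without Z2 c, Empty a or Empty b nor after the GC correction, and XBP1 not without Empty a, and neither was called by the 6-library fit, which called 1 member of the list. There were 2 without Z2 c or Empty b and 1 without Empty a. Of 23 p53 targets 1 rose and 6 fell (median -0.099), but 1 member was called without Empty a, 3 without Z2 c or Empty b, 4 without Z2 b or Empty c and 3 by the 6-library fit. AEN, an apoptosis nuclease, fell by 0.30 on the log2 scale. BTG2 (-0.31) and FDXR (-0.20) were not called without Empty a, and FDXR also not without Z2 b, Z2 c or Empty b.

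Ribosomal and respiratory genes changed by small amounts. Of 53 cytosolic ribosomal protein genes 5 were called higher and 0 lower (median 0.028), a smaller share than the 12.4% and 11.5% over all tested genes, RPL5 (0.19) and RPL4 (0.18) among them. The 6-library fit called 0 of them, with 1 called without Empty a, 2 without Z2 c, 2 without Empty b, 3 without Empty c, 8 without Z2 a and 9 without Z2 b, and pseudogenes share their reads. Single wells ended the calls of RPL5 (Empty a) and RPL4 (Z2 b or any Empty well). Of 37 mitochondrial ribosomal protein genes 0 rose and 8 fell (median -0.11), for instance MRPS15 (-0.33), MRPL37 (-0.25) and MRPL11 (-0.26), with 3 called without Empty a and 13 without Z2 a. Of 43 genes of the respiratory chain and ATP synthase 1 rose and 6 fell (median -0.077). CYC1, cytochrome c1, had 202, 179.6 and 219.9 CPM in Z2 wells, against 242, 276 and 263 CPM in Empty wells (log2 fold change -0.38 ± 0.07, edgeR adjusted p = 0.000945). ATP5D (-0.40) and NDUFS7 (-0.43) fell and lie on 19p, and 4 members were called without Empty a, without Empty b or with the genes of 19p and 1p left out, and 13 without Z2 a.

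Calls were uneven along chromosome 19. In the first 6 Mb of its short arm 86 of 165 tested genes (52.1%) were called lower and 6 higher, where 11.5% of all tested genes were called lower, and the median log2 fold change was -0.26. In the rest of the chromosome 129 of 933 genes were called lower and 86 higher (median -0.034). Medians of 1 Mb steps were between -0.18 and -0.33 up to 6 Mb, and between -0.080 and 0.012 between 6 and 10 Mb. The step from 10 to 11 Mb again had -0.18, with 10 of 33 genes lower. The region was low in each well, with medians of -0.21, -0.36 and -0.21 in Z2 a, b and c. Its genes are GC-rich, with a median GC content of 62.9% against 49.5% over all tested genes, and after the GC correction the median was -0.20. The limits of this region, and those of the first 90 Mb of chromosome 1, where 162 of 713 genes were lower and 42 higher (median -0.10), were set after the data were seen. Over 250 windows of 10 Mb, medians ranged from -0.21 to 0.20, and 219 lay within 0.1 of 0. DNA copy number was not measured, and its part in these values was not tested.

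Z2 was also set against the other ZHX3-labelled lines. Against Z5, 1 of 15289 genes was called (0.00654%), while 1571 had an unadjusted p under 0.05 and the DESeq2 Wald test called 11. Without Z2 a 153 were called. The gene was GPC4, a heparan sulfate proteoglycan of the cell surface, with 0.244, 0.442 and 0.339 CPM in Z2 wells and a mean of 1.53 CPM in Z5 and 1.93 CPM in Z9, against a mean of 0.0342 CPM in Empty. Its log2 difference was -2.16 for Z2 minus Z5, -2.49 for Z2 minus Z9 and 3.22 for Z2 minus Empty, the last from 54 counts in Z2 wells and 6 in Empty wells (ratio 9.85, 95% counting interval 4.24 to 28.0). Z2 thus lay between Empty and the other 2 lines at GPC4.

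Against Z9, 790 genes were called (5.17%), 491 higher in Z2 (3.21%) and 299 lower (1.96%). Of these, 378 were also called against Empty, 237 of them higher and 141 lower than in Z9. The count against Z9 was 32 in a fit of the 6 Z2 and Z9 libraries alone. It was 2399, 216 and 316 without Z2 a, Z2 b and Z2 c, and 81, 75 and 219 without Z9 a, Z9 b and Z9 c. Without Empty a, Empty b and Empty c, which enter the fit but not this contrast, it was 537, 456 and 518. The count thus depended on which libraries entered the fit. SUSD2, a membrane protein gene, had 21.1 ± 2.75 CPM in Z2, 18.1 ± 1.99 in Z5 and 11 ± 1.75 in Z9, against 14.5 ± 1.18 in Empty (SD, n = 3 wells each). GLRX, which encodes glutaredoxin, had 166 ± 14.9 CPM in Z2, 138 ± 13.2 in Z5 and 111 ± 5.51 in Z9, against 130.3 ± 8.05 in Empty. SUSD2 and GLRX were above Empty in Z2 and below it in Z9.

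LPAR6, a receptor of lysophosphatidic acid, had 77.7 ± 11.3 CPM in Z2 and 51.8 ± 1.69 in Z9, against 48.2 ± 2.07 in Empty, and TTC39B 27.1 ± 1.28 in Z2 and 18.8 ± 1.03 in Z9, against 20.3 ± 0.509 in Empty. Lower in Z2 were PLD6, a phospholipase D relative of mitochondria, at 8.06 ± 0.465 CPM against 11.7 ± 0.11 in Z9, and the polarity gene SCRIB at 108 ± 9.84 CPM against 142 ± 0.547. The ribosome assembly gene RRP12, FCGBP and EVI5L were lower too (Z2 minus Z9 -0.33, -0.51 and -0.54). The comparisons with Empty, Z5 and Z9 share the Z2 wells.

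**Figure D5:**
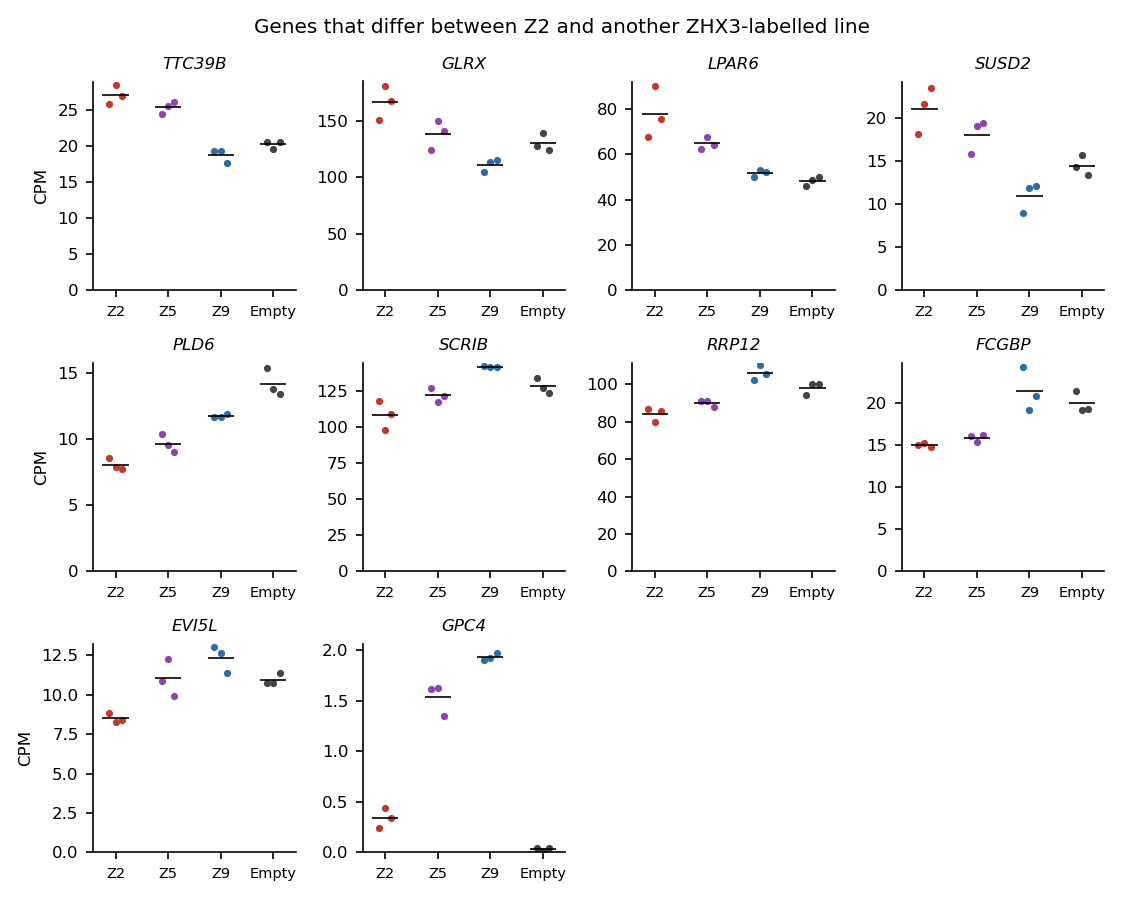
CPM in each of 3 wells of Z2, Z5, Z9 and Empty for the genes named for a difference between Z2 and Z9, and for GPC4, with horizontal bars at the means and axes that start at 0. SUSD2 lies at 21.1 CPM in Z2 and 11 in Z9, and GPC4 lies at 0.342 CPM in Z2 between Empty and the other lines.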

How the data were processed

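RNA of HepG2 wells was sequenced from NEBNext Ultra II libraries, per the labels' protocols. The authors deposited raw integer counts for each gene symbol, and the submitters' processing notes name STAR, featureCounts and hg38. For their settings, the annotation and strand handling the sources used here give nothing, so overlapping, antisense and near-identical genes are uncertain. Groups followed the titles, and all replicates are wells of 1 line.

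For testing, the counts of 12 libraries entered edgeR 4.0.16 (R 4.3.3, filterByExpr, TMM, robust quasi-likelihood fit of 4 group means, 8 residual degrees of freedom, Benjamini-Hochberg adjustment over 15289 genes, calls at an adjusted p under 0.05). The common biological coefficient of variation was 0.0696. SE is on the log2 scale. CPM use TMM-scaled library sizes. On simulated counts for Z2 minus Empty (15155 genes), recovery was 32% for 1.25-fold, 76% for 1.5-fold, 92% for 2-fold and 100% for 4-fold changes. The simulation changed 50 genes at each of these folds, far fewer than the 3654 called in the data. Recovery and false calls with that many changes are not known. It gave every line the spread of the 12-library fit. The wider spread within Z2 (0.101) was not simulated, so recovery and false calls at that spread are not known. False calls made up 5.66%.

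The comparison, the gene lists (48, markers included) and the naming rule were chosen with earlier results of these data known. The rule took ZHX1, ZHX2 and ZHX3, the 10 largest changes in each direction (protein-coding, mean of at least 1 log2 CPM, wells apart), up to 3 called members per list by adjusted p, the 5 smallest adjusted p in each direction (protein-coding, mean of at least 4 log2 CPM), up to 5 genes in each direction that differed from Z9, genes called against Z5, and the genes furthest from the other wells in each Z2 well. Of the genes it took, 3 are not reported here, though they stand in the counts. Other list members are marked or stand in a full listing of a list's calls. RefSeq GRCh38.p14 held 23752 of the symbols as current and 1566 as a unique synonym, and 1167 did not match. GC content was known for 96.4% of tested genes.

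Alternatives were DESeq2 1.42.0 size factors, its Wald test, 2 other filters, the 6-library fit, the well letter as a block and leaving out each well. A GC correction and leaving out genes of 19p and 1p were added after the data were seen.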

Additional observations from a re-analysis of the deposited data

Results flagged for a closer look

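Among the genes named against Empty, those below also differed between Z2 and another ZHX3-labelled line (edgeR adjusted p under 0.05 for that difference). Against Z9, values higher in Z2 on the log2 scale were 0.30 for ZHX2, 0.30 for CFI, 0.39 for C19orf80, 0.29 for SLC2A1, 0.30 for FMO5, 0.43 for CP, 0.34 for VLDLR, 0.38 for CPED1, 0.53 for TTC39B, 0.58 for GLRX, 0.58 for LPAR6 and 0.94 for SUSD2.

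Values lower in Z2 than in Z9 were -1.14 for GSTA1, -0.32 for ALDH1A1, -0.25 for SRXN1, -0.23 for NOTUM, -0.32 for AEN, -0.33 for TAP2, -0.54 for PLD6, -0.39 for SCRIB, -0.33 for RRP12, -0.51 for FCGBP, -0.54 for EVI5L and -2.49 for GPC4. GPC4 also differed from Z5, by -2.16. TTC39B, GLRX, LPAR6, SUSD2, PLD6, SCRIB, RRP12, FCGBP and EVI5L were named for the size of this difference, so their values are a description. A fit of the Z2 and Z9 libraries alone called 32 genes in all, against 790 with 12 libraries.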

How the results depend on the processing

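The count of 3654 genes called in Z2 was 3676 with DESeq2 size factors, 3983 with the DESeq2 Wald test, 3467 without a filter, 3558 at a minimum of 1 CPM, 4009 after the GC correction and 3358 without genes of 19p and 1p. It was 2390 in the 6-library fit (1086 lower). With 1 well left out it ranged from 2130 to 4411, higher calls from 1179 to 2270 and lower calls from 951 to 2141, lowest without Empty a and highest without Z2 a. At least 2-fold changes numbered 250 at a minimum of 1 CPM. ZHX3 stayed uncalled. Against Z5, DESeq2 called 11 genes, and leaving out 1 well gave up to 153. Against Z9, counts were 1526 by DESeq2, 32 with only the 2 groups compared, 511 after the GC correction and 75 to 2399 with 1 well left out. With the replicate block, 4173 genes were called against Empty and 1512 against Z9. Same-lettered Z2 and Empty wells correlated in their deviations at 0.0806, 0.136 and 0.0905, not all over 0.1, so the letters were not taken as pairs. Of 156 named calls, 146 stood in the 6-library fit, 154 after the GC correction and at 1 CPM, 144 to 154 with 1 well left out, and 156 under the other planned settings. Among those not called in the 6-library fit were ZHX2, NFYA, CPT2, CRIM1, FDXR, XBP1, ATF6, RPL5 and RPL4. The GC correction ended the calls of FDXR and ATF6, and INSIG1 and MT1M fell below 1 CPM. At this depth and spread, 76% of simulated 1.5-fold changes were recovered, so smaller changes can be missed.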
